A study of Homo sapiens with 6 samples.

Results

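The genes described here are 10 that build the nuclear lamina and the inner nuclear membrane of human cells: LMNB1, LMNB2, LMNA, LBR, TMPO, EMD, LEMD3, BANF1, SUN1 and SUN2. They were listed by symbol for their place in the cell by a rule with no threshold on a measured value, although earlier results of these data were known when the list was drawn up, and each matched 1 of the 60656 genes in the count table by its Ensembl identifier. Their transcripts were measured in ZR-75-1, a human breast cancer line that is ER-positive. Parental cells were grown for 4 days with 500 nM abemaciclib, a CDK4/6 inhibitor, or with an equal volume of DMSO, the solvent alone. There were 3 libraries in each group, and the comparison was of abemaciclib with DMSO. RB1 was not targeted in either group, and the study's RB1 knockout arm was not analysed here. All values are from a single cell line, a single dose and a single time.

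The nuclear lamina is a meshwork of lamin filaments under the inner nuclear membrane. The B-type lamins, from LMNB1 and LMNB2, stay tethered to the membrane by a farnesyl anchor, whereas lamins A and C, both made from LMNA, are also found inside the nucleus. Membrane proteins tie this meshwork to chromatin (LBR, and the LEM domain proteins from TMPO, EMD and LEMD3, which bind the small DNA-binding protein BANF1) and to the cytoskeleton (SUN1 and SUN2, which span the envelope with their nesprin partners). A low level of lamin B1 is a widely used marker of senescent cells, and the envelope is taken apart and rebuilt at each mitosis.

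The libraries held between 3317860 and 4013156 counts on genes, and levels are given as CPM, counts as a rate per library after TMM scaling (a method that corrects for differences in library make-up). Where a library had 0 counts of a gene, its level there could have reached 0.740 to 0.909 CPM (3 counts, counting error only). Because the 3′ mRNA kit gives 1 read per transcript end, levels of different genes were compared on this scale without correction for length. Abemaciclib replicate 3 stood furthest from the other libraries of its group, with a chi-square per degree of freedom over genes of 6.90 and 7.29 in its pairs, against 3.48 for the other pair. All 9 luminal epithelial markers looked up had a mean above 10 CPM. Of 17 markers of other cell types, 1 did (COL1A1, 13.1 CPM with DMSO and 12.5 CPM with abemaciclib), and 11 had 0 counts in every library. ACTA2, another of the 17, went from 9.25 ± 3.71 CPM with DMSO to 1.31 ± 0.71 CPM with abemaciclib (SD, n = 3 each). The summed level of those 17 markers was 19.1 to 29.4 CPM with DMSO and 10.9 to 17.8 CPM with abemaciclib. That of the 9 luminal markers was 8098 to 8539 CPM with DMSO and 11800 to 13210 CPM with abemaciclib. A lower level in these bulk libraries can come from fewer cells that make a transcript or from less of it in each cell, and these cannot be told apart.

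With abemaciclib, 6 of the 10 genes fell and 0 rose at an adjusted P under 0.05, by edgeR's quasi-likelihood test adjusted over all 10863 genes tested. The genes that fell were LMNB1, LBR, TMPO, LMNB2, SUN2 and LMNA, in order of the size of the fall. Across all genes tested, 13.3% were called lower and 12.5% higher. DESeq2 also called 6 lower and 0 higher of the 10, and called 1165 lower and 1069 higher of 20429 genes in all. At an unadjusted P under 0.05 by edgeR there were 8 lower and 0 higher of the 10. The share of all genes at that unadjusted level was not computed, so this count has no background here. The log2 fold changes of the 10 genes had a median of −0.66, against −0.0018 over all genes tested. All 10 passed the filter on low counts. For 8 of the 10, every abemaciclib library lay below every DMSO library, which was true of 20.1% of all genes tested, and for 0 of the 10 did every abemaciclib library lie above every DMSO library, against 19.1%. BANF1 and SUN1 were the 2 genes whose groups overlapped.

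**Figure D1:**
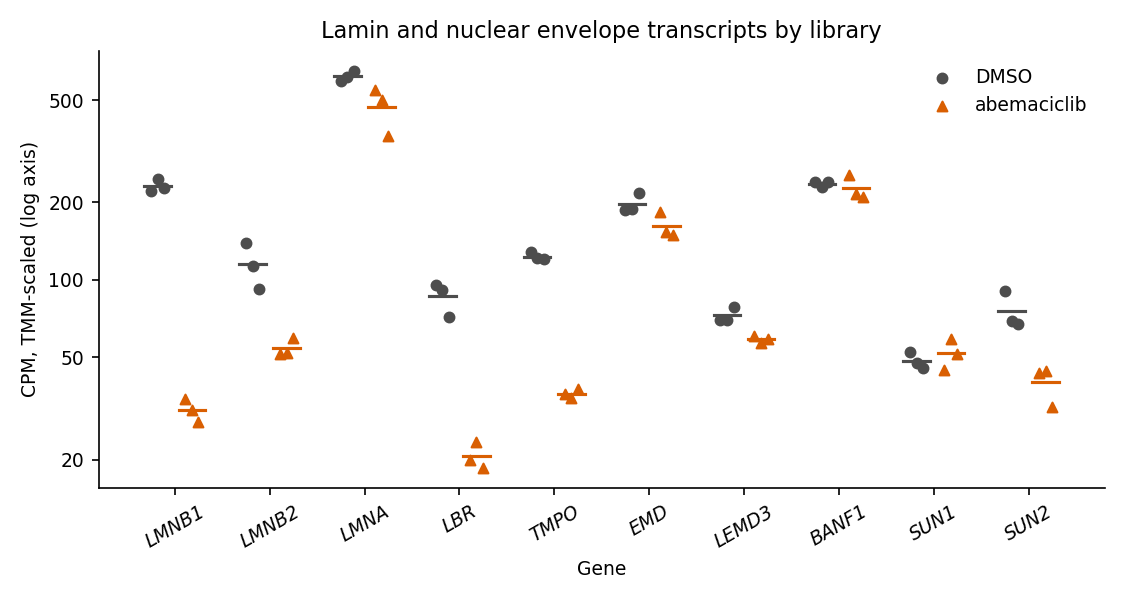
Level of each of the 10 genes in each library, in TMM-scaled CPM on a log axis, with DMSO libraries as circles, abemaciclib libraries as triangles and group means as horizontal lines. LMNB1 goes from a mean of 231.8 CPM to 31.3 CPM, whereas the groups of BANF1 and SUN1 overlap.

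With DMSO, LMNA had the highest level of the 10 at 620 CPM. BANF1 and LMNB1 came next with overlapping libraries, then EMD. TMPO and LMNB2 overlapped, as did LMNB2 with LBR, LBR with SUN2 and SUN2 with LEMD3, and SUN1 was lowest at 48.5 CPM. With abemaciclib, LMNA, BANF1 and EMD held the first 3 places without overlap between neighbours. LEMD3, LMNB2 and SUN1 followed with overlapping neighbours, then SUN2 and TMPO, which also overlapped. LMNB1, the third highest with DMSO, was the ninth of the 10 with abemaciclib, and LBR was lowest at 20.7 CPM.

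Promoter sequences of the genes are shown here so that the genes that fell can be set beside those that did not. They are RefSeq sequences of GRCh38.p14, in windows from 250 bases before to 50 bases after a transcription start. Of the 10 genes, 9 had at least 1 window, 15 windows in all, and SUN1 had none. Each was searched on both strands for motifs found in promoters of genes that vary with the cell cycle: the cell cycle homology region (CHR, TTTGAA), the CCAAT box, and 4 E2F-like sequences (TTTGGCGC, TTTCGCGC, TTTCCCGC and TTCCCGCC, of which the last pair can overlap). Over 35116 RefSeq windows of the same length, 15.2% held the CHR, 5.0% an E2F-like sequence and 34.6% a CCAAT. The stretches below read 5′ to 3′ on the gene's own strand, and capitals mark the matches, with TTCAAA and ATTGG as the other-strand readings of TTTGAA and CCAAT.
TMPO, chr12:98515340-98515589, plus strand, 250 bases before the start: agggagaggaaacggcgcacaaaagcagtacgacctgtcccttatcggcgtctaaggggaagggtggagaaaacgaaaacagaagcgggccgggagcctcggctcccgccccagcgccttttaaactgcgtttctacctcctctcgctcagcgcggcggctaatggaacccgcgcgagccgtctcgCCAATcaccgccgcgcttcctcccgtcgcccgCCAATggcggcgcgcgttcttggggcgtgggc
LMNB2, chr19:2456960-2457209, minus strand, 250 bases before the start: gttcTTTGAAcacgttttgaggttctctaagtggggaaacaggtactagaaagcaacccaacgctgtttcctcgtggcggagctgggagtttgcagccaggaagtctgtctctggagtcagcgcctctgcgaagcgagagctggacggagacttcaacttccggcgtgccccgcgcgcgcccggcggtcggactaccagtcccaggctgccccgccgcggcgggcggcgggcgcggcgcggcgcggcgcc
LMNB1, chr5:126776990-126777019, plus strand: tgctccccATTGGcccatggtagtcacgtg
SUN2, chr22:38756088-38756117, minus strand: gctttgtgTTCAAAccggCCAATgggtggc
LMNA, chr1:156082542-156082571, plus strand: agttgtagTTTCCCGCCcttgggggcgcgg
LEMD3, chr12:65169441-65169470, plus strand: ggtggctcTTTCCCGCtcaggtgagctcct

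Among the genes that fell, TMPO held 2 CCAAT matches, LMNB1 held 1, 138 bases before the start of 1 of its 2 windows, and LMNB2 held a CHR 246 bases before its start. SUN2 held a CHR beside a CCAAT, and a further CCAAT nearer the start, in 1 of its windows, and LBR held none of these motifs. LMNA held overlapping E2F-like matches and a CCAAT in a window whose start is upstream of the canonical one. Of the genes that did not pass the test, LEMD3 held an E2F-like match and a CCAAT, EMD held 2 CCAAT matches and BANF1 held none. Matches were thus present in genes that fell and in genes that did not pass, and a match describes these letters only, not a bound site.

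LMNB1, which encodes lamin B1, lies on chromosome 5 from 126776623 to 126837020, on the plus strand (gene coordinates are from the GENCODE annotation of GRCh38). It was counted 761, 829 and 754 times in the DMSO libraries and 114, 127 and 104 times in the abemaciclib libraries. The lowest DMSO library, at 220.7 CPM, was far above the highest abemaciclib library, at 34.5 CPM. Its level went from 231.8 ± 13.1 CPM to 31.3 ± 3.19 CPM (mean ± SD, n = 3 each). This was a log2 fold change of −2.89 (SE 0.12, 95% interval −3.14 to −2.63, adjusted P = 8.95e-17), which left 13.5% of the DMSO level. Of the 10863 genes tested, 102 had a lower log2 fold change, or 0.939%.

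LMNB2, which encodes lamin B2, lies on chromosome 19 from 2427638 to 2456959, on the minus strand. Its levels were 138.6, 113.8 and 92.4 CPM with DMSO and 51.7, 51.8 and 59.7 CPM with abemaciclib. The DMSO libraries were spread more widely than those of LMNB1, and the groups did not overlap. The fall was −1.08 on the log2 scale (SE 0.14, 95% interval −1.37 to −0.79, adjusted P = 9.79e-07), a 2.11-fold fall against the 7.41-fold fall of LMNB1.

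LMNA, on chromosome 1 from 156082573 to 156140081 on the plus strand, gives both lamin A and lamin C, which gene counts do not separate. Its levels were 592.6, 616.7 and 650.6 CPM with DMSO and 546.1, 498.4 and 363.1 CPM with abemaciclib. The lowest value was that of abemaciclib replicate 3, the library that stood furthest from its group, and the other abemaciclib libraries also lay below all DMSO libraries. LMNA thus changed by −0.40 on the log2 scale (SE 0.11, 95% interval −0.63 to −0.17, adjusted P = 0.00762). Without abemaciclib replicate 3 it was −0.25, still past the threshold (adjusted P = 0.0222, edgeR).

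Within a library, the share of each lamin gene in the summed counts of the 3 lamin genes does not depend on scaling. LMNB1 made up 23.2%, 25.2% and 23.5% of lamin counts in the DMSO libraries and 5.46%, 5.39% and 6.23% in the abemaciclib libraries. LMNA made up 64.1 ± 2.51% with DMSO and 84.2 ± 3.20% with abemaciclib (SD, n = 3 each). LMNB2 made up 11.9 ± 2.54% and 10.1 ± 2.74%, with overlapping libraries. The lamin transcripts of treated cells were therefore made up to a greater part of LMNA, although LMNA itself was also lower.

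The ratios of these genes were tested with an exact permutation test over libraries, two-sided, for which 0.1 is the smallest P that 3 against 3 allows, with adjustment over 4 ratios. The log2 ratio of LMNB1 to LMNA went from −1.42 ± 0.093 to −3.88 ± 0.17 (SD, n = 3 each, exact permutation P = 0.1, adjusted 0.133), a 5.52-fold change. The log2 ratio of LMNB1 to LMNB2 went from 1.03 ± 0.33 to −0.80 ± 0.26 (SD, n = 3 each, exact permutation P = 0.1, adjusted 0.133). LMNB1 was thus the more abundant B-type lamin transcript in every DMSO library, and LMNB2 in every abemaciclib library. The log2 ratio of LMNB2 to LMNA was −2.45 ± 0.36 with DMSO and −3.09 ± 0.43 with abemaciclib, with overlapping libraries (SD, n = 3 each, exact permutation P = 0.2, adjusted 0.2).

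**Figure D2:**
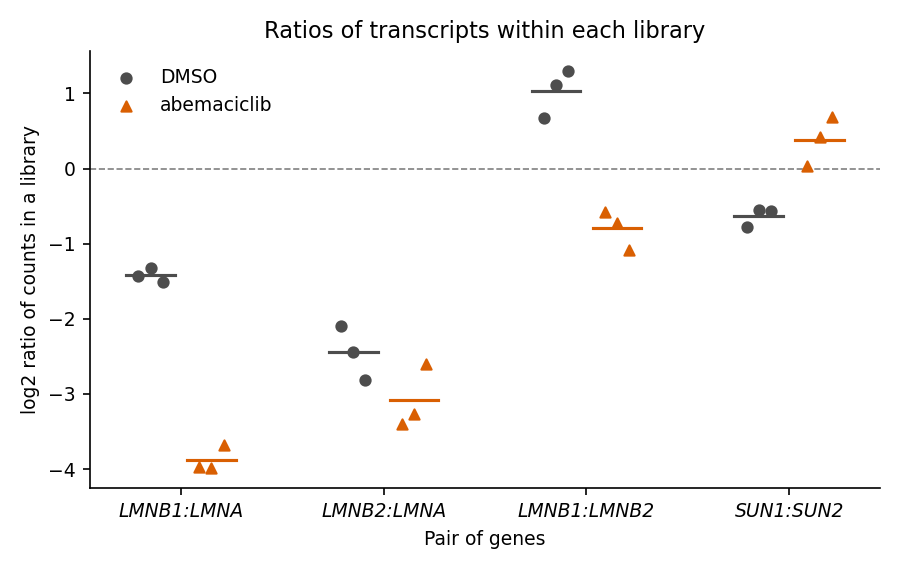
The log2 ratio of counts of gene pairs in each library (0.5 added to each count), with DMSO libraries as circles, abemaciclib libraries as triangles and group means as horizontal lines. LMNB1:LMNB2 lies above 0 in all DMSO libraries and below 0 in all abemaciclib libraries, and LMNB2:LMNA overlaps. SUN1:SUN2 lies below 0 in all DMSO libraries and above 0 with abemaciclib, though only at 0.04 in abemaciclib replicate 1.

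LBR encodes the lamin B receptor, a membrane protein that binds B-type lamins and chromatin and whose membrane part is a sterol reductase. It lies on chromosome 1 from 225401502 to 225428925, on the minus strand. Its counts were 331, 307 and 237 with DMSO and 66, 95 and 69 with abemaciclib, so that the groups stood well apart. The level went from 86.3 ± 12.8 CPM to 20.7 ± 2.48 CPM (SD, n = 3 each), with a log2 fold change of −2.06 (SE 0.17, 95% interval −2.39 to −1.72, adjusted P = 7.53e-11). This 4.16-fold fall was the second in size among the 10 genes.

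TMPO, on chromosome 12 from 98515579 to 98550351 on the plus strand, encodes the LAP2 proteins, some of which sit in the inner membrane and 1 of which is free in the nucleus with A-type lamins. Gene counts sum these isoforms. Its counts were 441, 408 and 397 with DMSO and 119, 141 and 139 with abemaciclib. The libraries of each group were close together, at 123.1 ± 4.18 CPM and 36.1 ± 1.39 CPM (SD, n = 3 each). TMPO thus changed by −1.77 on the log2 scale (SE 0.13, 95% interval −2.04 to −1.50, adjusted P = 1.23e-11), a 3.41-fold fall. Its 2 annotated pseudogenes held between 0 and 2 counts in each library.

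LBR and TMPO both belong to the 54 genes of the G2/M list distributed with Seurat, and 0 of the 10 genes belong to its S phase list. Of the 53 G2/M genes tested, with a median log2 fold change of −2.18, 29 had a more negative value than LBR and 35 a more negative value than TMPO. Of those 53 genes, 51 were called lower, against 13.3% of all genes tested, and LBR and TMPO lay on the milder side of the list's median. Of the 43 S phase genes, 35 were called lower, with a median of −1.35. Whether their falls had a part apart from that of the list was not tested.

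The other LEM domain genes fell less, if at all. EMD encodes emerin, the inner membrane protein lost in X-linked Emery–Dreifuss muscular dystrophy, and lies on chromosome X from 154379273 to 154381574. Its levels were 186.5, 188.0 and 217.5 CPM with DMSO and 183.3, 153.0 and 148.9 CPM with abemaciclib, with a narrow gap between the groups. The change of −0.29 on the log2 scale (95% interval −0.51 to −0.06) did not pass the test (adjusted P = 0.0537). It passed with total counts as the only scaling, with a minimum of 10 counts in every library, and without abemaciclib replicate 1 (−0.38, adjusted P = 0.0176, edgeR). LEMD3, also called MAN1, is an inner membrane protein that binds SMAD proteins, and lies on chromosome 12 from 65169583 to 65248355. Its levels were 69.9, 69.8 and 78.8 CPM with DMSO and 60.5, 56.7 and 58.9 CPM with abemaciclib, without overlap. With a log2 fold change of −0.31 (95% interval −0.59 to −0.04), it did not pass the test either (adjusted P = 0.0890).

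BANF1, on chromosome 11 from 66002228 to 66004149, encodes the small protein that bridges DNA and LEM domain proteins when the envelope reforms. Its levels were 240.2, 230.5 and 239.6 CPM with DMSO and 255.0, 215.6 and 209.9 CPM with abemaciclib, so that the groups overlapped. Its log2 fold change was −0.06 with a 95% interval of −0.27 to 0.15 (adjusted P = 0.712). A fall of the size seen for LMNB1, LBR, TMPO, LMNB2, SUN2 or LMNA lies outside this interval. Its 5 annotated pseudogenes held 0 counts.

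SUN1 and SUN2 are partly redundant proteins of the inner membrane whose outer ends grip nesprins. SUN1, on chromosome 7 from 816615 to 896435, had levels of 52.5, 47.5 and 45.4 CPM with DMSO and 44.8, 59.2 and 51.6 CPM with abemaciclib, which overlapped. Its log2 fold change was 0.10 (95% interval −0.22 to 0.42, adjusted P = 0.694), and −0.01 without abemaciclib replicate 2, so no direction was given by these libraries. SUN2, on chromosome 22 from 38733290 to 38794143, had counts of 312, 234 and 222 with DMSO and 144, 180 and 119 with abemaciclib. The level went from 75.7 ± 12.8 CPM to 40.04 ± 6.85 CPM (SD, n = 3 each), without overlap. SUN2 thus changed by −0.92 on the log2 scale (SE 0.16, 95% interval −1.25 to −0.59, adjusted P = 6.24e-05), a 1.89-fold fall. The 3′ end of SUN2 overlaps GTPBP1, on the opposite strand, by 60 exonic bases, and whether the counting used the strand is not stated. GTPBP1 held between 59 and 90 counts in each library.

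The pair moved apart within libraries. The log2 ratio of SUN1 to SUN2 was −0.78, −0.55 and −0.56 in the DMSO libraries and 0.04, 0.41 and 0.68 in the abemaciclib libraries. SUN2 was thus the more abundant in every DMSO library and SUN1 in abemaciclib replicates 2 and 3. In abemaciclib replicate 1 the pair were nearly equal, at 148 counts for SUN1 and 144 for SUN2. The difference of 1.01 (means of −0.63 ± 0.13 and 0.38 ± 0.32, SD, n = 3 each) had an exact permutation P of 0.1, adjusted 0.133.

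**Figure D3:**
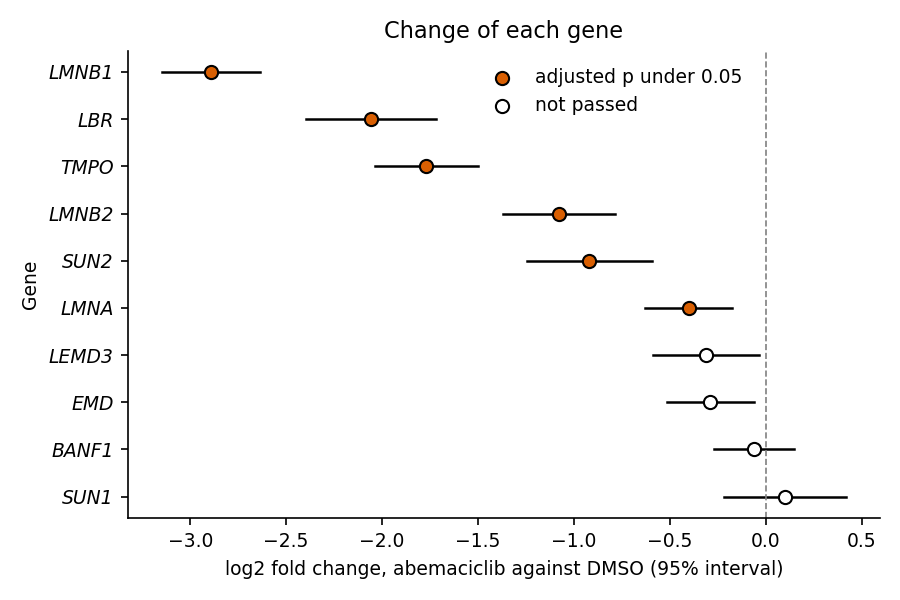
The log2 fold change of each gene, abemaciclib against DMSO, with its 95% interval as a line; filled points passed the test at an adjusted P under 0.05. The 5 largest falls have intervals that end below −0.5, and those of BANF1 and SUN1 span 0.

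Genes with a profile over the 6 libraries closest to that of LMNB1 were found from the root mean square difference of their log2 levels, each relative to the DMSO mean. The nearest were H4C3 (0.12), a histone H4 gene, then UBE2C (0.14), a ubiquitin-conjugating enzyme of mitotic exit, LGALS1 (0.14), which encodes galectin-1, PRR11 (0.15), and E2F2 (0.16), an E2F transcription factor. Their log2 fold changes were −2.87 for H4C3, −3.07 for UBE2C, −2.84 for LGALS1, −2.71 for PRR11 and −3.09 for E2F2, and likeness was measured on the same libraries that give those values. H4C3 belongs to a family of nearly identical genes and UBE2C has a pseudogene with 9 to 33 counts per library, so their counts are less certain.

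Among 32 other genes of the envelope, 29 were tested, of which 3 rose and 3 fell, with a median log2 fold change of 0.05. That was 10.3% in each direction, no more than the 12.5% higher and 13.3% lower of all genes tested. NRM, which encodes nurim, an inner membrane protein, was counted 111, 72 and 93 times with DMSO and 14, 6 and 6 times with abemaciclib. It changed by −3.50 on the log2 scale (SE 0.35, 95% interval −4.21 to −2.79, adjusted P = 5.9e-09), an interval that overlaps that of LMNB1. Without abemaciclib replicate 1 the value was −4.11, and without abemaciclib replicate 2 it was −3.23. SYNE2 encodes nesprin-2, which SUN proteins hold at the envelope, and went from 151.7 ± 18.4 CPM to 42.8 ± 7.87 CPM (SD, n = 3 each, log2 fold change −1.82, adjusted P = 2.43e-11). LEMD2, a LEM domain gene, fell by 0.60 in log2 units (adjusted P = 0.0280). DESeq2 did not call LEMD2, nor did edgeR when replicate 1 or 2 of DMSO or replicate 2 or 3 of abemaciclib was left out.

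The 3 that rose did so by small amounts. TOR1AIP2, which encodes LULL1, an activator of torsin ATPases, rose by 0.44 on the log2 scale (adjusted P = 0.00198). TM7SF2, a sterol reductase that shares its activity with LBR, rose by 0.42 (adjusted P = 0.0204), a call that did not hold without replicate 3 of either group. CHMP3, an ESCRT-III subunit, a complex that reseals the envelope, rose by 0.40 (adjusted P = 0.00704), which was lost without DMSO replicate 2. LBR and TM7SF2 thus moved in opposite directions, with TM7SF2 at 65.0 ± 7.66 CPM with DMSO and 86.9 ± 7.15 CPM with abemaciclib (SD, n = 3 each). Of the 5 genes tested for farnesylation and processing of lamin ends (FNTA, FNTB, RCE1, ICMT and ZMPSTE24), 0 passed in either direction by edgeR, at an unadjusted P under 0.05 or by DESeq2, with log2 fold changes between −0.44 and 0.25. The same 3 counts were 0 for VRK1 and VRK2, the kinases of BANF1.

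Of the 32 nuclear pore genes, all tested, 1 rose and 5 fell, with a median of −0.16 on the log2 scale. These were 3.12% higher and 15.6% lower, against 12.5% higher and 13.3% lower of all genes tested. The share lower was thus near that of all genes, and the share higher was below it. The largest falls were those of NUP160, in the outer ring of the pore (−1.23, adjusted P = 0.0153), and NUP155, in its inner ring (−1.08, adjusted P = 5.49e-05). NUP37, another outer ring gene, fell by 0.69 (adjusted P = 0.0444), and NUP58 and NUP62, of the central channel, were the remaining calls, named after their values were seen. NUP160 was no longer called when replicate 1 or 2 of DMSO or replicate 1 of abemaciclib was left out. NUP37 was not called by DESeq2, with no filter on low counts, with a replicate block, or when replicate 1 or 2 of either group was left out. RANBP2, on the cytoplasmic side, rose by 0.51 (adjusted P = 0.0202), a call that did not hold without replicate 2 or 3 of DMSO or replicate 3 of abemaciclib.

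Since low lamin B1 is used as a marker of senescence, a list of 31 genes tied to senescence by general knowledge was read beside it. Of these, 15 were tested, 4 rose and 5 fell, with a median log2 fold change of 0.13. The shares were 26.7% higher and 33.3% lower, beside 12.5% and 13.3% of all genes tested. HMGB2, a chromatin protein lost from senescent cells, was counted 962, 909 and 738 times with DMSO and 11, 23 and 38 times with abemaciclib (log2 fold change −5.30, adjusted P = 1.9e-18). Like LBR and TMPO, HMGB2 also belongs to the G2/M list of Seurat, of whose 53 genes tested 51 were called lower. HMGB1, which leaves the nucleus in senescence, fell by 1.12 (adjusted P = 1.93e-10). It has many pseudogenes, of which HMGB1P5 held 9 to 50 counts per library. The fall of HMGB2, like that of LMNB1, is in the direction the marker is read. Whether the fall of LMNB1 had a part apart from that of the cell cycle genes was not tested. HMGB1 is read by where its protein lies, which transcript counts do not show.

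The 2 CDK inhibitor genes that could be tested, of a kind senescent cells usually express more, went the other way. CDKN1A, which encodes p21, went from 151.6 ± 10.4 CPM to 23.9 ± 4.49 CPM (SD, n = 3 each), a change of −2.66 on the log2 scale (adjusted P = 1.66e-14). CDKN2A had counts of 126, 124 and 142 with DMSO and 29, 38 and 26 with abemaciclib (log2 fold change −2.20, adjusted P = 1.01e-08). It encodes both p16 and ARF, which gene counts do not separate, so the fall cannot be assigned to p16. CDKN2B was too low to test, with 4 counts over the DMSO libraries and 0 over the abemaciclib libraries. GLB1, the gene of the senescence-associated β-galactosidase, had a value of 0.34 on the log2 scale (95% interval −0.04 to 0.71) and did not pass the test (adjusted P = 0.190).

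Among secreted factors of the list, TIMP1 rose by 1.98 (adjusted P = 6.78e-07) and TIMP2 by 0.66 (adjusted P = 0.00289) on the log2 scale, both inhibitors of metalloproteinases. IGFBP5, a binding protein of insulin-like growth factors, went from 2510 ± 13.9 CPM to 5929 ± 193.3 CPM (SD, n = 3 each), a log2 fold change of 1.24, and IGFBP4 was the other gene that rose, named after its values were seen. GDF15, a stress-responsive cytokine, fell by 2.53 in log2 units (adjusted P = 6.26e-12). The interleukins and chemokines IL6, CXCL8, IL1A, IL1B, CXCL1, CXCL2, CCL2 and CCL20 and the proteases MMP1, MMP3 and MMP10 had 0 counts in every library, which is below detection at this depth in both groups. The list thus held genes that moved with and against the direction in which each is read as a marker.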

How the data were processed

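RNA was measured in 6 libraries of ZR-75-1 cells, grouped by the treatment in their labels. Per the study's methods, 3′ mRNA reads were trimmed (BBDuk), aligned (STAR 2.7.5b, hg38) and assigned to GENCODE genes (featureCounts 2.0.1). The deposited values are the authors' raw counts, without normalization or a filter. The strand setting of the counting is not given in the sources used here, and labels and methods name the direction of the library kit differently. The study describes its RNA-seq replicates as independent biological replicates.

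Symbols were matched by identifier for 60401 of 60656 genes. Genes were filtered with filterByExpr, scaled by TMM and tested with edgeR 4.0.16 in R 4.3.3 (glmQLFit, glmQLFTest, group as the only term, Benjamini–Hochberg adjustment over 10863 genes, threshold 0.05). The standard error was the log2 fold change over the square root of F. The biological coefficient of variation was 13.2%. The test code was run on simulated counts with 200 changed genes and the same coefficient of variation for every gene. That setting is simpler than the data. Ratios had 0.5 added to each count and an exact permutation test (scipy 1.17.1). Alternatives were DESeq2 1.42.0, its size factors, total counts, no filter, at least 10 counts in every library, a replicate block, 1 count added in ratios, and each library left out. Overlaps were sought in the last 500 bases of each named gene.

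The genes and lists were chosen with earlier results of these data known. Besides the 10 genes, up to 3 called genes with the largest rise and fall per list, 8 senescence genes and the 5 genes nearest LMNB1 were named. The cell cycle lists came from Seurat 5.3.0.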

Additional observations from a re-analysis of the deposited data

How the results depend on the processing

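Of 148 recomputed values of the comparisons, 142 kept their direction and size class. The count of nuclear pore genes that fell was 3 with DESeq2 and 3 to 5 with a library left out, against 5, and the count that rose was 0 to 1, against 1. RANBP2 was the gene behind the latter. With a library left out, the log2 fold change of SUN1 ran from −0.0052 (without abemaciclib replicate 2, adjusted P = 0.990) to 0.1955. Of 406 recomputed values of single genes, 21 lost their call, 3 gained one (EMD in each) and 1, SUN1, changed sign. NRM and NUP160 could not be tested with at least 10 counts in every library. With a replicate block, 6 of the 10 lamin and envelope genes were lower and 0 higher, and 1280 and 1139 genes of all were lower and higher, against 1442 and 1354. Deviations of same-numbered libraries from their group means correlated at −0.0434, 0.00705 and −0.0893, against −0.0551 to 0.0959 for differently numbered libraries. This gave no sign that the numbers pair the samples, but with 3 libraries per group it does not settle the matter. Over all alternatives, 0 genes called in both fits changed sign. With total counts as the only scaling, the median log2 fold change of all genes was −0.0173. The log2 fold change of LMNB1 ran from −2.96 to −2.82, that of LBR from −2.17 to −1.98, that of TMPO from −1.80 to −1.74, that of LMNB2 from −1.21 to −0.92 and that of LMNA from −0.52 to −0.25. Depth limited the values of genes with few counts, such as NUP160 and CDKN2B.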

Other observations

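NEMP2, a relative of the inner membrane gene NEMP1, was counted 31 times over the DMSO libraries and 3 times over the abemaciclib libraries, too few to pass the filter. ANKLE1, a LEM domain nuclease, was counted 6 times with DMSO and 0 times with abemaciclib. SYNE3, which encodes nesprin-3, had 0 counts in every library. NEMP1 was measured at 11.0 ± 1.63 CPM with DMSO and 11.98 ± 2.23 CPM with abemaciclib (SD, n = 3 each), with overlapping libraries. SYNE1, the gene of nesprin-1, was low in both groups, at 3.67 ± 1.19 CPM and 5.71 ± 2.85 CPM (SD, n = 3 each), with overlapping libraries.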
